A study of Mus musculus with 55 samples.

Results

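The genes described here are 8 genes of cholesterol synthesis that are textbook targets of the transcription factors SREBP1 and SREBP2: Msmo1, Insig1, Hmgcs1, Sqle, Idi1, Lss, Fdft1 and Fdps. They were taken by symbol from a table of 24453 genes, and all 8 were found and passed the filter on low values, which 12541 genes passed. Their RNA was measured by poly(A) RNA sequencing in 55 libraries from 3 mouse muscles: the flexor digitorum brevis (FDB) of the foot, the extensor digitorum longus (EDL) of the lower leg, which is fast, and the soleus (SOL), which is slow. Mice were mdx, which carry a mutation in the dystrophin gene Dmd and model Duchenne muscular dystrophy, or wild type (wt), and were 2 or 5 months old. FDB had 3 mdx and 4 wt libraries at 2 months and 7 mdx and 4 wt libraries at 5 months. EDL had 4 mdx and 4 wt libraries at 2 months and 6 mdx and 4 wt libraries at 5 months. SOL had 4 mdx and 4 wt libraries at 2 months and 7 mdx and 4 wt libraries at 5 months. No treatment is named in the labels, and neither strain background, sex nor separate animals are given in the labels used here, so p-values measure the spread between libraries, which may be partly technical.

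Cells make cholesterol from acetyl-CoA through mevalonate, farnesyl diphosphate, squalene and lanosterol. When membranes of the endoplasmic reticulum hold little sterol, the escort protein SCAP carries SREBP to the Golgi, proteases release its active part, and that part enters the nucleus and turns on the genes of the pathway. When sterol is plentiful, INSIG proteins hold SCAP back. Of the 8 genes, Hmgcs1 codes for the cytosolic HMG-CoA synthase at the head of the pathway, and Idi1 and Fdps code for the isomerase and the synthase that build farnesyl diphosphate. Fdft1 codes for squalene synthase, the first enzyme committed to sterols. Sqle and Lss turn squalene into lanosterol, Msmo1 takes methyl groups off the ring, and Insig1 codes for the feedback regulator. In muscle tissue several cell types make cholesterol, among them the Schwann cells of its nerves, which need it for myelin.

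Depth, recovered from the table, lay between 20.3 and 66.7 M reads, and the median library held 50.3 M. Levels are RPKM, which is per length and per mapped read. Differences are on the log2(RPKM + 1) scale, which understates the change of low genes. Dmd, the label check, was lower in every mdx library than in every wt library of its group. Its means were 1.89 to 3.71 RPKM in the 6 mdx groups, against 6.94 to 11.7 RPKM in the 6 wt groups. The 11 muscle fibre markers were present in every library, with summed levels from 27913 to 47222 RPKM, and the 6 hepatocyte markers were near 0, with sums of at most 0.591 RPKM. The libraries carry running IDs, which were cut here into 3 blocks. Block 1 runs up to ns48, block 2 from ns49 to ns53 and block 3 from ns54 to ns65. The wt libraries all lie in block 1. Of the mdx libraries at 5 months, FDB had 3 in block 1 and 4 in block 3, EDL 2 in block 1 and 4 in block 3, and SOL 4 in block 2 and 3 in block 3. These cuts were chosen for this report, and no batch is named in the labels used here. Values with the mdx libraries of 1 block alone are given beside the 5-month results. Block 1 values compare mdx and wt libraries of the same block, while values of blocks 2 and 3 set mdx libraries of those blocks against wt libraries of block 1. In SOL at 5 months no mdx library lies in block 1, so genotype and block cannot be told apart there. All libraries at 2 months lie in block 1, so age and block cannot be told apart in mdx SOL either. The 4 SOL libraries of block 2 were shallow, at 21.3 to 25.8 M reads. One wt FDB library at 2 months, ns09, stood apart from the other 3 in these genes. The FDB comparison of mdx and wt at 2 months and the genotype by age test in FDB are given with and without it.

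The median difference of all genes between mdx and wt was above 0 in each comparison. At 2 months it was 0.13 in FDB, 0.14 in EDL and 0.10 in SOL, and at 5 months 0.18 in FDB, 0.23 in EDL and 0.18 in SOL. A gene at that median has not moved relative to the rest of the table. Changes are therefore also given less this median, and 2 other scalings (median of ratios and quantile normalization) are given where they change a count or a direction.

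On the deposited scale the highest group mean lay in FDB for 7 of the 8 genes and in wt SOL at 5 months for Fdft1. Levels were not compared between muscles under the other scalings. Median-of-ratios factors, by which levels are divided, were 1.27 to 1.30 in mdx FDB at 2 months and 0.738 to 0.771 in wt EDL at 5 months. Narrow differences between muscles, such as those of Hmgcs1 and Fdps, may therefore not hold under that scaling. Sqle spanned the widest range of group means, 3.12 ± 1.06 RPKM in mdx FDB at 5 months (SD, n = 7) against 0.395 ± 0.13 RPKM in wt SOL at 5 months (SD, n = 4), a ratio of 7.92. The ratio of the highest to the lowest group mean was 3.94 for Msmo1, 2.82 for Lss, 2.67 for Insig1, 2.25 for Idi1, 1.59 for Hmgcs1 and 1.49 for Fdps. For Msmo1, Insig1 and Sqle the 3 highest groups were mdx FDB at both ages and wt FDB at 2 months, and their ranges did not reach that of the group next in order. In Sqle 1 mdx SOL library at 5 months, ns52, did reach the range of wt FDB at 2 months, with 1.65 RPKM against a lowest value of 1.61 RPKM. Lss was the plainest FDB gene: all 4 FDB groups, at 1.08 to 1.41 RPKM, lay above all 8 EDL and SOL groups, at 0.501 to 0.64 RPKM. Among these 8 lower groups of Lss, each overlapped its neighbour in the order of levels. Over the 11 neighbouring pairs of groups in that order, ranges overlapped in 11 for Hmgcs1, Idi1 and Fdps, in 10 for Msmo1, Insig1, Lss and Fdft1, and in 9 for Sqle. In wt muscle at 2 months, 5 of the 8 genes had every FDB library above every EDL and SOL library, as had 41.1% of all genes tested. Msmo1 was then 2.58 times its EDL level and 2.29 times its SOL level, and Sqle 3.43 and 3.19 times. These FDB means include ns09, the highest of its group, and the ratios are lower without it. It held 5.495 RPKM of Msmo1, against 3.42 to 3.89 RPKM in the others, and 3.85 RPKM of Sqle, against 1.61 to 2.18 RPKM. Hmgcs1, Fdft1 and Fdps overlapped between muscles. By group means Hmgcs1 ran at 10.7 to 17.1 RPKM, Fdps at 8.37 to 12.5 RPKM and Fdft1 at 5.36 to 13.0 RPKM.

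**Figure D1:**
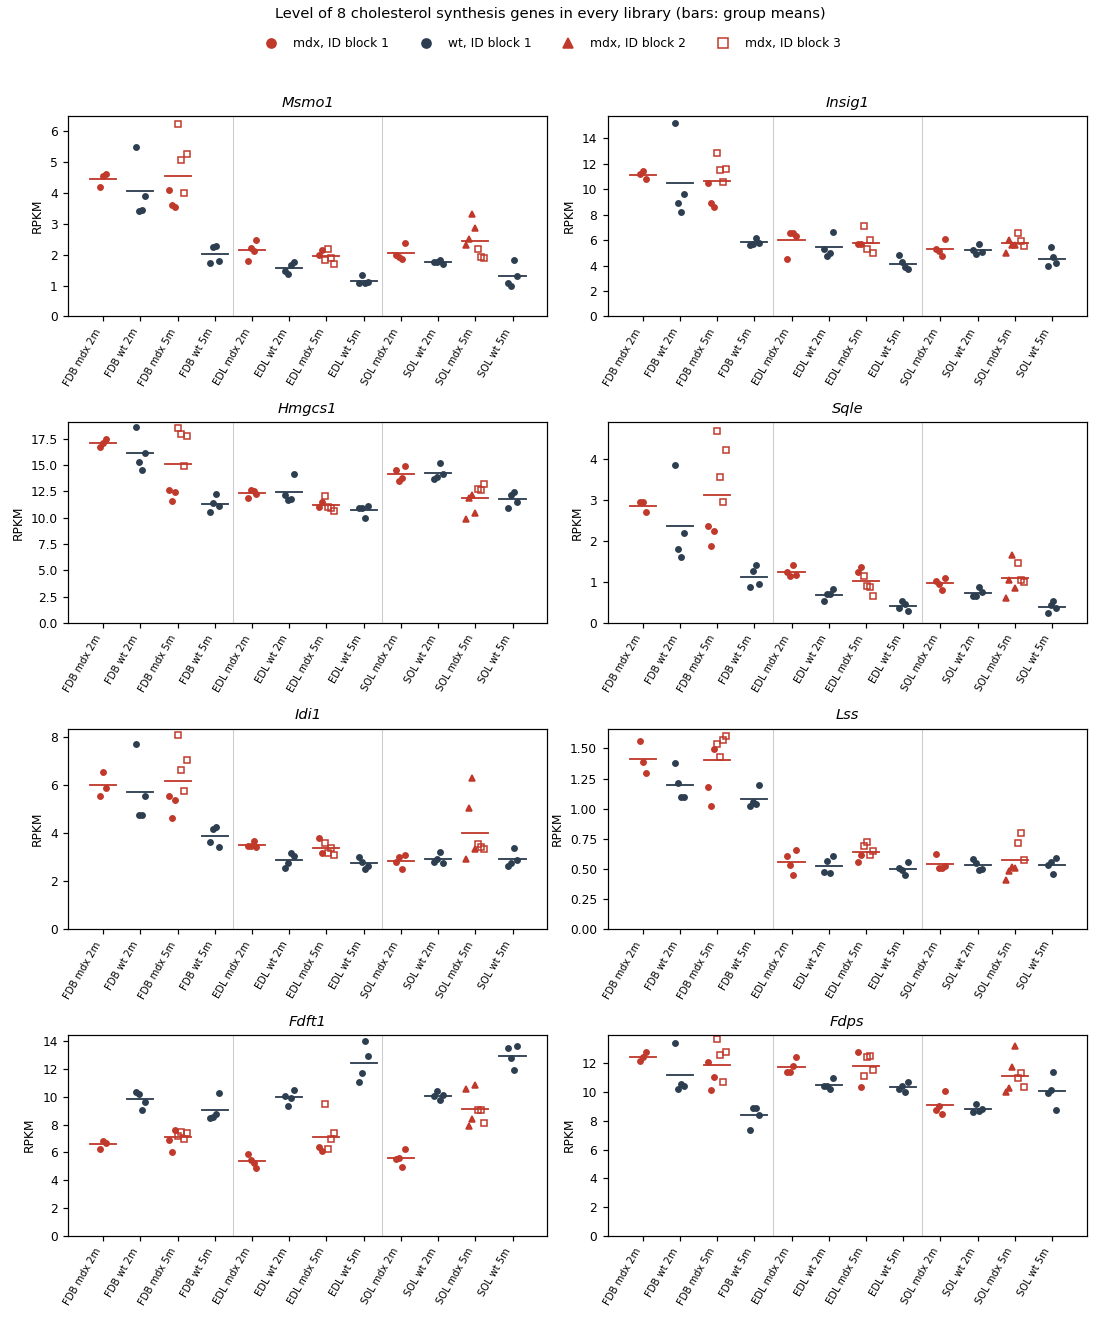
RPKM of the 8 genes (y axis, from 0) in each of the 55 libraries by muscle, genotype and age (x axis), with bars at group means; symbols mark the block of library IDs. Sqle, Msmo1, Insig1 and Lss stand highest in FDB, while Fdft1 is lower in every mdx group than in its wt group.

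At 5 months mdx FDB held more RNA of all the genes but Fdft1. Of the 8 genes, 7 rose and 1 fell in mdx against wt FDB, where 53.1% of all genes tested rose and 9.46% fell. The median difference of the 8 genes was 0.50, against 0.18 for all genes. Under median-of-ratios scaling and under quantile normalization 5 rose and 1 fell, with Hmgcs1 and Lss no longer past the threshold of an adjusted p of 0.05. Of 12541 genes tested, 8025 and 7815 passed in either direction under these scalings. In bulk tissue, a change in the number of cells of a type and a change of RNA per cell cannot be told apart.

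Sqle, the squalene epoxidase, had 1.89 RPKM in the lowest, 2.95 in the median and 4.67 in the highest of the 7 mdx FDB libraries at 5 months, against 0.868, 1.26, 1.41 and 0.95 RPKM in the wt libraries. All 7 mdx libraries lay above all 4 wt libraries. The mean was 2.78 times the wt mean, and the log2 difference was 0.93 (SE 0.135, limma adjusted p = 1.0e-07), which is 0.75 above the all-gene median. Msmo1, the sterol methyl oxidase, had 3.54, 4.10 and 6.22 RPKM as its lowest, median and highest mdx values, against 1.72, 2.23, 2.29 and 1.79 RPKM in wt. Here too the groups did not overlap, and the log2 difference was 0.87 (SE 0.105, limma adjusted p = 1.7e-09), 0.69 above the all-gene median. Insig1 had 8.63, 10.5 and 12.8 RPKM as its lowest, median and highest mdx values, against 5.64, 5.68, 6.13 and 5.79 RPKM in wt. The regulator of the pathway thus rose with its enzymes, by 0.76 (SE 0.104, limma adjusted p = 2.4e-08), 0.59 above the all-gene median.

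The other 4 of the 7 had smaller log2 differences. Idi1 had a log2 difference of 0.54 (limma adjusted p = 5.3e-05) and Fdps one of 0.45 (limma adjusted p = 2.1e-07), and neither overlapped between genotypes. Hmgcs1 had a difference of 0.37 (limma adjusted p = 0.00015), with 11.6, 14.9 and 18.5 RPKM as its lowest, median and highest mdx values, against 10.6 to 12.2 RPKM in wt, and its lowest mdx library lay within the wt range. Lss rose by 0.21 (limma adjusted p = 0.0014), which is only 0.03 above the all-gene median, and its sign turned to -0.09 under quantile normalization. Groups that did not overlap, with mdx above wt, were seen for 5 of the 8 genes, against 38.0% of all genes tested, and with mdx below wt for Fdft1 alone, against 6.19%.

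**Figure D2:**
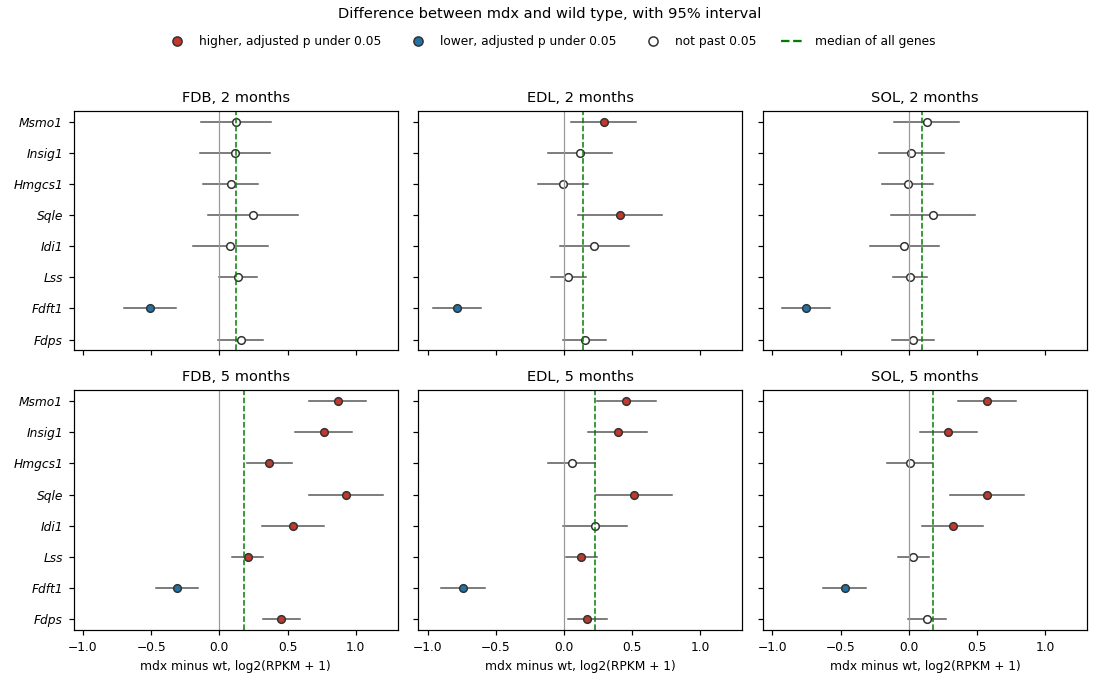
Difference between mdx and wt in log2(RPKM + 1) (x axis) for each gene (y axis) in 6 comparisons, with 95% confidence intervals; filled circles passed an adjusted p of 0.05 and the dashed line is the median of all genes. Fdft1 lies left of 0 in all 6 panels, and the largest rises are those of Sqle and Msmo1 in FDB at 5 months.

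In mdx FDB at 5 months the size of these rises moved with the block of library IDs. Sqle had 2.36, 1.89 and 2.23 RPKM in the 3 mdx libraries of block 1 and 4.67, 3.56, 2.95 and 4.21 RPKM in the 4 of block 3, against 0.868 to 1.41 RPKM in wt. With block 1 alone the log2 difference of Sqle was 0.58 (limma adjusted p = 0.00054), and with block 3 alone 1.19 (limma adjusted p = 2.2e-10). Msmo1 gave 0.66 in block 1 and 1.02 in block 3, Insig1 0.60 and 0.89, Idi1 0.34 and 0.69, and Fdps 0.37 and 0.52, each past the threshold in both blocks. Hmgcs1 passed in block 3, at 0.56, and had 0.10 in block 1 (limma adjusted p = 0.24). Lss likewise passed in block 3, at 0.29, and had 0.10 in block 1 (limma adjusted p = 0.20). Msmo1, Insig1, Sqle, Idi1 and Fdps therefore rose within block 1 and with the mdx libraries of block 3 alone, and the other 2 of the 7 rose with block 3 alone. Of 12541 genes tested, 5988 passed in either direction with block 1 and 8030 with block 3.

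Marker sums of other cells also differed between the blocks, in both directions. The 8 Schwann cell markers, among them the myelin gene Mbp, summed to 118 to 137 RPKM in the mdx libraries of block 1 and 310 to 422 RPKM in those of block 3, against 94.4 to 157 RPKM in wt FDB at 5 months. At 2 months the same sums were 319 to 416 RPKM in mdx FDB and 291 to 401 RPKM in wt FDB. In EDL and SOL the sums ran from 23.8 to 102 RPKM. None of the 8 was at 0 in any group. The 8 adipocyte markers summed to 114 to 123 RPKM in mdx block 1 and 191 to 265 RPKM in mdx block 3, against 79.3 to 101 RPKM in wt. The 10 macrophage markers ran the other way between blocks, at 563 to 825 RPKM in block 1 and 425 to 549 RPKM in block 3, against 97.4 to 147 RPKM in wt. So did the 8 regenerating fibre markers, at 239 to 320 RPKM in block 1 and 126 to 141 RPKM in block 3, against 42.7 to 51.9 RPKM in wt. The 11 muscle fibre markers summed to 32500 to 36926 RPKM in block 1, 27913 to 28955 RPKM in block 3 and 37348 to 40801 RPKM in wt. In FDB at 5 months 7 of 8 Schwann, 6 of 6 tested adipocyte, 10 of 10 macrophage and 8 of 8 fibroadipogenic progenitor markers rose in mdx. Of all genes tested 53.1% rose there. With block 1 alone 5 of the 8 cholesterol genes rose and 1 fell, where 5988 of 12541 genes tested passed in either direction. In that block the Schwann marker sums overlapped those of wt, and the adipocyte and macrophage sums lay wholly above them. How far other cells take part in the rises was not tested.

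**Figure D3:**
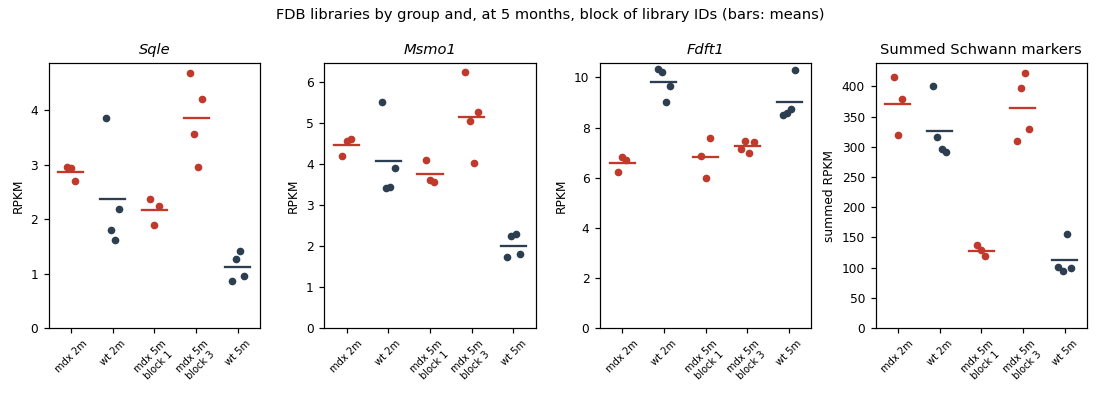
RPKM of Sqle, Msmo1 and Fdft1 and the summed RPKM of 8 Schwann cell markers (y axes, from 0) in FDB libraries by group and, for mdx at 5 months, block of library IDs (x axis); bars are means. Sqle, Msmo1 and the Schwann markers are higher in block 3 than in block 1, while Fdft1 stays near 7 RPKM in both.

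With age most of the 8 genes fell in wt FDB, while the test of the difference between genotypes passed for 2 of them and rests on few libraries. From 2 to 5 months 6 of the 8 genes fell in wt FDB, against 27.3% of all genes tested, and 0 of the 8 passed in mdx FDB in either direction, against 5.88% of all genes tested. In mdx FDB 1 gene, Hmgcs1, had an unadjusted p under 0.05 in limma. The 2-month wt FDB values include ns09, and with any 1 library left out 5 or 6 of the 8 genes passed in wt FDB. Msmo1 averaged 2.01 ± 0.291 RPKM at 5 months and 4.06 ± 0.983 RPKM at 2 months in wt FDB (SD, n = 4 each). Its log2 change was -0.74 (limma adjusted p = 7.0e-06). Insig1 fell by 0.72, Sqle by 0.63, Hmgcs1 by 0.47, Idi1 by 0.44 and Fdps by 0.37 on the log2 scale, while Lss had -0.08 and Fdft1 -0.11. The median of the 8 genes was -0.46, against -0.10 for all genes. In mdx FDB Msmo1 averaged 4.54 ± 0.994 RPKM at 5 months (SD, n = 7) and 4.45 ± 0.218 RPKM at 2 months (SD, n = 3). Insig1 averaged 10.6 ± 1.5 RPKM at 5 months and 11.1 ± 0.314 RPKM at 2 months in the same muscle. Those 2-month libraries all lie in block 1. With block 1 alone the 5-month means were lower than at 2 months, at 3.75 RPKM for Msmo1 and 9.36 RPKM for Insig1. With block 3 alone they were 5.13 and 11.6 RPKM. Sqle averaged 2.86 RPKM at 2 months, against 2.16 RPKM in block 1 and 3.85 RPKM in block 3 at 5 months. Hmgcs1 averaged 17.1 RPKM at 2 months, against 12.2 and 17.3 RPKM. Fdft1 did not fall in block 1, at 6.59 RPKM at 2 months and 6.82 RPKM at 5 months. All 8 Schwann and all 8 fibroadipogenic progenitor markers fell with age in wt FDB as well, and their part in the fall of the 6 genes was not tested.

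The difference between these age effects, tested as genotype by age, passed for Msmo1, at 0.74 (SE 0.165, limma adjusted p = 0.015), and Insig1, at 0.65 (SE 0.164, limma adjusted p = 0.032). That is 2 of 8 genes higher, against 0.989% of all genes tested. Sqle had 0.68 (limma adjusted p = 0.080), Idi1 0.46 (limma adjusted p = 0.15), Fdps 0.30 (limma adjusted p = 0.13) and Hmgcs1 0.28 (limma adjusted p = 0.23). This test shares its libraries with the 5-month comparison and is no separate evidence for it. Without ns09 neither gene passed, nor without the mdx library ns04. With block 1 of the mdx libraries alone 0 genes passed, at 0.54 for Msmo1 and 0.49 for Insig1, and with block 3 alone 6 passed. The share of all genes that passed with 1 block alone is not given here.

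Library ns09 was the highest of the 4 wt FDB libraries at 2 months in all 8 genes. It had 3.85 RPKM of Sqle, against 1.61 to 2.18 RPKM in the other 3, and 15.2 RPKM of Insig1, against 8.21 to 9.60 RPKM. Msmo1 stood at 5.495 RPKM in ns09 and at 3.42 to 3.89 RPKM in the others. Its Schwann marker sum was 401 RPKM, against 291 to 316 RPKM. With ns09 in the fit, 1 of the 8 genes passed between mdx and wt FDB at 2 months, Fdft1, which fell, where 30.0% of all genes tested rose and 4.60% fell. The other 7 had differences of 0.08 to 0.24. Without ns09, Insig1 rose by 0.29, Sqle by 0.44 and Fdps by 0.24, and Fdft1 fell. In that fit 4073 of 12541 genes tested passed in either direction.

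**Figure D4:**
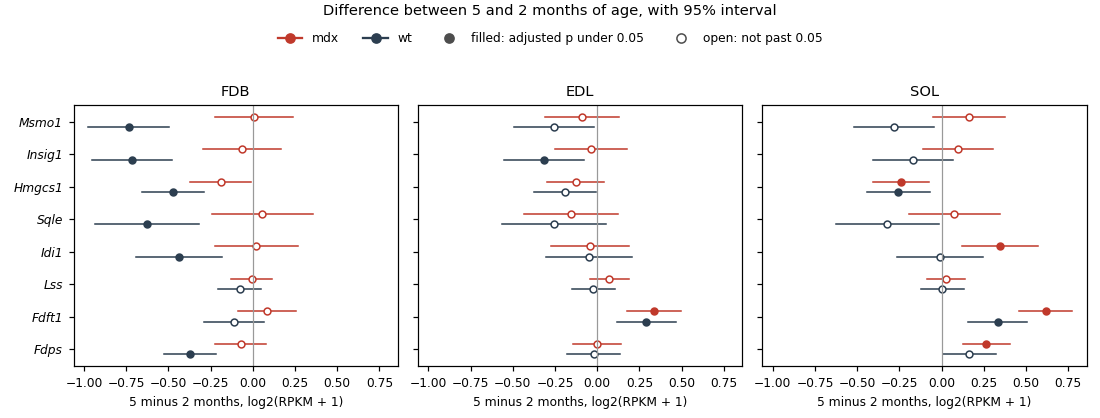
Difference between 5 and 2 months in log2(RPKM + 1) (x axis) for each gene (y axis) in mdx (upper) and wt (lower) libraries of each muscle, with 95% confidence intervals; filled circles passed an adjusted p of 0.05. In FDB 6 wt intervals lie wholly left of 0 and are filled, and no mdx circle is filled.

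In EDL at 5 months the number of genes that rose depended more on scaling than in FDB, and in SOL it also fell under both other scalings. In EDL at 5 months 5 of the 8 genes rose and Fdft1 fell, where 60.2% of all genes tested rose and 8.52% fell, and the median of the 8 was 0.20, against 0.23 for all genes. Under median-of-ratios scaling 2 rose and 3 fell, and under quantile normalization none rose and 2 fell. Of 12541 genes tested, 7697 and 7246 passed in either direction under these scalings. Sqle had 0.643, 1.02 and 1.35 RPKM as its lowest, median and highest values in mdx EDL at 5 months, against 0.364, 0.525, 0.467 and 0.30 RPKM in wt. The groups did not overlap, and the difference was 0.51 (limma adjusted p = 0.0013), 0.28 above the all-gene median. By means, Sqle in mdx was 2.48 times wt in EDL and 2.77 times in SOL at 5 months, near the ratio of 2.78 in FDB, and the log2(RPKM + 1) differences are smaller at these lower levels. The test of genotype by muscle at 5 months did not pass for Sqle (limma F test adjusted p = 0.14). Msmo1 had a difference of 0.46 (limma adjusted p = 0.00026) and Insig1 one of 0.39 (limma adjusted p = 0.0012), which are 0.23 and 0.16 above that median. These 3 genes passed with block 1 and with block 3 alone. Lss, at 0.13, and Fdps, at 0.17, passed on the deposited scale, lay below the median of all genes and did not pass with block 1 alone. In all, 5 of the 8 genes had every mdx EDL library above every wt library at 5 months, against 51.5% of all genes tested.

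In SOL at 5 months Msmo1, Insig1, Sqle and Idi1 rose and Fdft1 fell, where 52.9% of all genes tested rose and 11.3% fell. The split was 2 higher and 2 lower under median-of-ratios scaling and 2 higher and 3 lower under quantile normalization. Of 12541 genes tested, 7601 and 7656 passed in either direction under these scalings. Sqle had 0.618, 1.04 and 1.65 RPKM as its lowest, median and highest mdx values, against 0.232, 0.441, 0.540 and 0.365 RPKM in wt, again with no overlap, and a difference of 0.57 (limma adjusted p = 0.00028). Msmo1 had 1.90, 2.32 and 3.31 RPKM as its lowest, median and highest mdx values, against 1.08, 0.979, 1.83 and 1.32 RPKM in wt. All 7 mdx values lay above the highest wt value, and the difference was 0.57 (limma adjusted p = 7.1e-06). Both are 0.40 above the all-gene median, and both passed with the mdx libraries of block 2 alone and with those of block 3 alone, each against wt libraries of block 1. Idi1 passed in block 2, at 0.43, and had 0.18 in block 3 (limma adjusted p = 0.14), and Insig1 had 0.25 in block 2 (limma adjusted p = 0.065) and passed in block 3, at 0.34. Lss had -0.05 in block 2 and passed in block 3, at 0.15 (limma adjusted p = 0.045). Hmgcs1, which rose in FDB, had 0.01 in SOL and 0.06 in EDL at 5 months, with signs that turned under both scalings. Groups that did not overlap, with mdx above wt, were seen for 2 of the 8 genes in SOL at 5 months, against 32.2% of all genes tested. At 5 months 9 of 10 macrophage markers and 5 of 6 tested adipocyte markers rose in mdx EDL, and as many in mdx SOL, and their part in the values of EDL and SOL was not tested.

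At 2 months 2 of the 8 genes rose and Fdft1 fell in EDL, and in SOL Fdft1 alone passed. In EDL Msmo1 rose by 0.29 (limma adjusted p = 0.037) and Sqle by 0.41 (limma adjusted p = 0.022), where 41.6% of all genes tested rose and 8.69% fell. Neither passed without the mdx library ns35 or without the wt library ns41, and under both other scalings no gene rose and 2 fell. With the compared groups alone in the fit 4 rose. Of 12541 genes tested, 6100 passed in either direction under median of ratios, 6234 under quantile normalization and 6837 with the compared groups alone. Every mdx EDL library lay above every wt library at 2 months for 4 of the 8 genes, Msmo1, Sqle, Idi1 and Fdps, against 40.6% of all genes tested. In SOL this held for Msmo1 alone, against 36.2%. In SOL at 2 months no gene rose, where 32.3% of all genes tested rose and 7.68% fell, and the 7 genes other than Fdft1 had differences of -0.03 to 0.18.

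The mdx effect was then compared between muscles. At 2 months the F test of genotype by muscle passed for 0 of the 8 genes in limma, against 6.02% of all genes tested, and no gene had an unadjusted p under 0.05. At 5 months it passed for 4 of 8, against 37.1%: Fdft1 (limma adjusted p = 0.0074), Fdps (0.014), Insig1 (0.021) and Hmgcs1 (0.022), each a limma adjusted p. The effect in SOL less that in FDB passed for 3 genes, at -0.48 for Insig1, -0.36 for Hmgcs1 and -0.32 for Fdps, where 13.7% of all genes tested were lower. The effect in EDL less that in FDB passed for 3 genes, at -0.43 for Fdft1, -0.41 for Msmo1 and -0.28 for Fdps, where 7.14% were lower. Between SOL and EDL 0 genes passed in limma and 1, Fdft1, had an unadjusted p under 0.05, where 6.28% of all genes tested were higher and 12.7% lower. Without the wt FDB library ns13, 2 of the 8 passed the F test. Blocks differ between the muscles, since mdx FDB and EDL at 5 months lie in blocks 1 and 3 and mdx SOL in blocks 2 and 3. Muscle and block are thus mixed in the comparisons with SOL. Within mdx FDB Hmgcs1 averaged 12.2 RPKM in block 1 and 17.3 RPKM in block 3. More of the genes passed the F test with block 3 alone, as given below.

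Fdft1, squalene synthase, fell in mdx in all 6 comparisons, as did 1.04% of all genes tested. On the deposited scale none of the other 7 genes fell in any of them, while under the other 2 scalings some of them did in EDL and SOL, as given above for EDL and for SOL at 5 months. In FDB at 2 months it had 6.23, 6.84 and 6.70 RPKM in mdx, against 10.4, 10.2, 9.02 and 9.66 RPKM in wt, a difference of -0.51 (limma adjusted p = 0.00014). At 5 months it had 6.0, 7.16 and 7.60 RPKM as its lowest, median and highest mdx FDB values, against 8.48, 8.58, 8.75 and 10.3 RPKM in wt, and the difference was -0.31 (limma adjusted p = 0.00052). No mdx FDB library reached the wt range at either age. In EDL at 2 months it had 5.89, 5.44, 5.26 and 4.85 RPKM in mdx, against 10.05, 9.34, 9.91 and 10.5 RPKM in wt, a difference of -0.79 (limma adjusted p = 9.0e-10). The mdx EDL mean was 53.9% of the wt mean. In EDL at 5 months it had 6.09, 6.69 and 9.47 RPKM as its lowest, median and highest mdx values, against 11.1, 11.7, 14 and 13.0 RPKM in wt, and a difference of -0.74 (limma adjusted p = 8.7e-11). In SOL the differences were -0.75 at 2 months (limma adjusted p = 5.7e-09), with 4.96 to 6.27 RPKM in mdx and 9.75 to 10.4 RPKM in wt, and -0.47 at 5 months (limma adjusted p = 1.2e-06), with 7.93 to 10.8 RPKM in mdx and 11.9 to 13.6 RPKM in wt. The ranges of mdx and wt libraries did not overlap in any of the 6 comparisons. Every mdx library lay below every wt library for 8.44% of all genes tested in FDB at 2 months and 6.19% at 5 months. The shares were 10.4% and 6.59% in EDL and 10.1% and 4.70% in SOL. Less the all-gene median, the differences were -0.49 to -0.97, and under both other scalings all 6 were past the threshold and below 0. With the mdx libraries of 1 block alone at 5 months, the FDB differences were -0.36 in block 1 and -0.28 in block 3, those of EDL -0.89 in block 1 and -0.67 in block 3, and those of SOL -0.43 in block 2 and -0.52 in block 3.

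Fdft1 also moved with age. It rose from 2 to 5 months in both genotypes of the leg muscles. The mdx SOL libraries lie in block 1 at 2 months and in blocks 2 and 3 at 5 months. Age and block therefore cannot be told apart in the mdx SOL changes below. In mdx SOL the log2 change was 0.62 (limma adjusted p = 7.7e-08), in wt SOL 0.33 (limma adjusted p = 0.0060), in mdx EDL 0.34 (limma adjusted p = 0.0028), or 0.19 with block 1 alone (limma adjusted p = 0.25), and in wt EDL 0.29 (limma adjusted p = 0.012). Of all genes tested 20.6% rose in mdx SOL, 3.58% in wt SOL and 2.57% in wt EDL, and 17.6% passed in either direction in mdx EDL. In mdx SOL Idi1 rose by 0.34 and Fdps by 0.26 and Hmgcs1 fell by 0.24 on the log2 scale, and 20.2% of all genes fell. With block 3 alone Idi1 and Hmgcs1 did not pass. In wt SOL Hmgcs1 fell by 0.26 (limma adjusted p = 0.047), where 13.7% of all genes fell, and in wt EDL Insig1 fell by 0.32 (limma adjusted p = 0.044), where 21.2% fell. Neither fall passed under either other scaling or without the filter on low values. Between genotypes these age effects did not differ past the threshold for any of the 8 genes in EDL, where 5.92% of all genes tested did, or in SOL, where 14.0% did. By unadjusted p in limma, 0 of the 8 genes in EDL and 3 in SOL were under 0.05, the nearest being Msmo1 in SOL at 0.44 (limma adjusted p = 0.051).

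The annotation bears on how far these values can be read. Fdft1 (chromosome 14, 63145150 to 63179578, minus strand, mm10) overlaps the 3′ end of Ctsb, the cathepsin B gene on the plus strand (63122462 to 63145923), by 774 bases. Ctsb is an abundant lysosomal protease gene and averaged 88.4 to 131 RPKM in the mdx groups, against 49.9 to 67.0 RPKM in the wt groups. It rose in mdx in all 6 comparisons, by 0.58 to 0.97, opposite to Fdft1. Whether reads were counted by strand is not stated by the submitters' notes, so reads of the shared stretch cannot be assigned with certainty. Lss (chromosome 10, 76531588 to 76557138) overlaps an antisense gene, 4930483K19Rik, over 11268 bases. Hmgcs1 (chromosome 13, 119690379 to 119708260) and Idi1 (chromosome 13, 8885501 to 8892451) overlap antisense or unclassified models, and Fdps (chromosome 3, 89093588 to 89101959) overlaps a read-through model and an RNA gene on its own strand. Msmo1 (chromosome 8, 64718139 to 64733792), Insig1 (chromosome 5, 28071363 to 28078662) and Sqle (chromosome 15, 59315077 to 59331192) overlap no other annotated gene.

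Across the 55 libraries, differences between groups included, the 7 genes other than Fdft1 varied together. Their 21 pairs had Pearson correlations of 0.28 to 0.95 in log2(RPKM + 1), with a median of 0.77. After taking off the group means they ran from 0.06 to 0.82, with a median of 0.55. The lowest of these were Lss with Msmo1, at 0.06, with Idi1, at 0.14, and with Fdps, at 0.24. Lss had 0.34 with Insig1, 0.41 with Sqle and 0.54 with Hmgcs1. Within groups Lss therefore varied little with some of the 7 genes. The 7 pairs with Fdft1 had correlations of -0.46 to -0.21, with a median of -0.27. After group means were taken off these pairs ran from -0.07 to 0.20, with a median of 0.04. These are descriptions over libraries that share groups and muscle, and carry no test. The genes whose profile was most like the mean profile of the 8, among 11162 genes of at least 1 RPKM, were C2, Ndrg1, Ptpdc1, Gli1, Serpina3c, Pgrmc1, Clcn6, Gulp1, Clcn2 and Plscr4, with r of 0.92 to 0.89. That ranking takes in differences between groups, and over the 12 group means alone these genes had r of 0.95 to 0.97. With group means taken off, so that the likeness is within groups, the first 4 were Stard4, a sterol carrier (r = 0.84), Cyp51, lanosterol demethylase (0.80), Srebf2, which codes for SREBP2 (0.76), and Slc25a1, the mitochondrial citrate carrier (0.70). They were followed by Zbtb24, Syne2, Mfap3l, Ctcf, Dock9 and Rasgrf2, at 0.70 to 0.67.

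Promoter sequence was held for 5 of the 8 genes in the RefSeq table of the GRCm38.p6 build, Insig1, Msmo1, Lss, Idi1 and Hmgcs1. It was searched on both strands for the sterol regulatory element core TCACNCCAC, for CCAAT, the box bound by NF-Y, a usual partner of SREBP, and for the E-box CACGTG. These motifs do not overlap one another in the windows shown. The sterol element was found in 1 of the 5 windows of 250 bases before and 50 bases after the start, that of Hmgcs1, 137 bases before the start, and in 1.24% of all 32851 windows of that length. CCAAT was found in 5 of 5, against 37.4% of all windows, and CACGTG in 1 of 5, Insig1, against 7.15%. The searches for CCAAT and CACGTG were added with the values known. A match is a description of the letters and not a binding site. The 250 bases before the start are printed for Hmgcs1, which holds the sterol element, and for Msmo1 and Insig1, the genes that passed the genotype by age test in FDB. Capitals mark the motifs, and a CCAAT on the other strand reads ATTGG. The stretches are chr13:119690101-119690350 on the plus strand, chr8:64733579-64733828 on the minus strand and chr5:28071162-28071411 on the plus strand.
Hmgcs1: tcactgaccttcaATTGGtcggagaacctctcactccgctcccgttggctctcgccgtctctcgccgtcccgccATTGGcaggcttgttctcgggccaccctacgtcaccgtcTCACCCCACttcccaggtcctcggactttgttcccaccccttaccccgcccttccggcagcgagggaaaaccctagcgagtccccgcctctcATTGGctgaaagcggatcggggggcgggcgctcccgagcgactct
Msmo1: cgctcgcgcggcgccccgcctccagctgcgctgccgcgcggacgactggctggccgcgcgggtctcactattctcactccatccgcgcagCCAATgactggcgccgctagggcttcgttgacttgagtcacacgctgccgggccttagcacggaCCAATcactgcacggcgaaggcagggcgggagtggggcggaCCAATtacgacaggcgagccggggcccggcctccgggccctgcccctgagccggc
Insig1: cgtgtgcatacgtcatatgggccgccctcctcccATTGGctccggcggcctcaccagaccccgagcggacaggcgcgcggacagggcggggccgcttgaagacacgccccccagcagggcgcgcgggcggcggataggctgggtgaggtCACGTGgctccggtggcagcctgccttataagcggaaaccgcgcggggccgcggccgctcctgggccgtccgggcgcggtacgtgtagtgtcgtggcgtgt
Hmgcs1 holds the sterol element and 3 CCAAT boxes, Msmo1 has 3 CCAAT boxes, and Insig1 has 1 CCAAT box and the E-box.

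Of 14 more enzymes of the pathway, 10 rose and 0 fell in mdx FDB at 5 months, with a median of 0.34. In EDL at 5 months 11 rose and 2 fell, and in SOL at 5 months 9 rose and 1 fell. At 2 months 1 rose in FDB, 6 rose and 2 fell in EDL, and 2 rose in SOL. At 5 months 53.1% of all genes tested rose in FDB, 60.2% in EDL and 52.9% in SOL, and at 2 months 30.0%, 41.6% and 32.3%. The counts in FDB and SOL at 2 months lie below those shares, and no test sets the list apart from all genes. Cyp51, which acts just after Lss, rose by 0.86 in FDB at 5 months (limma adjusted p = 2.5e-09), where it averaged 2.39 ± 0.648 RPKM in mdx (SD, n = 7) and 0.839 ± 0.101 RPKM in wt (SD, n = 4). It had 0.18 and did not pass in EDL or SOL at 5 months. Its effect was less in both than in FDB, by -0.68 for EDL and -0.69 for SOL (limma adjusted p = 0.0010 and 0.00072). Within mdx FDB at 5 months Cyp51 averaged 1.82 RPKM in block 1 and 2.82 RPKM in block 3. Ebp, the sterol isomerase, rose in all 6 comparisons, by 0.38 to 0.63, as did 17.3% of all genes tested. Sc5d, the sterol desaturase, fell in EDL at both ages and in SOL at 5 months, by 0.19 to 0.20, and Hsd17b7 rose in EDL at 2 months, by 0.64, and in FDB and SOL at 5 months, by 0.20 and 0.24, and had -0.34 in EDL at 5 months, past the threshold. Mvk, Nsdhl, Pmvk, Tm7sf2 and Dhcr7 each rose in 3 or 4 comparisons and fell in none, and Acat2 rose in 2 and fell in 1. From 2 to 5 months 9 of the 14 enzymes fell in wt FDB, against 27.3% of all genes tested. In mdx FDB 0 changed, against 5.88%. Of the 9, Cyp51 fell by 0.60 on the log2 scale. One of the 14, Pmvk, passed the genotype by age test in FDB, at 0.37 (limma adjusted p = 0.029).

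**Figure D5:**
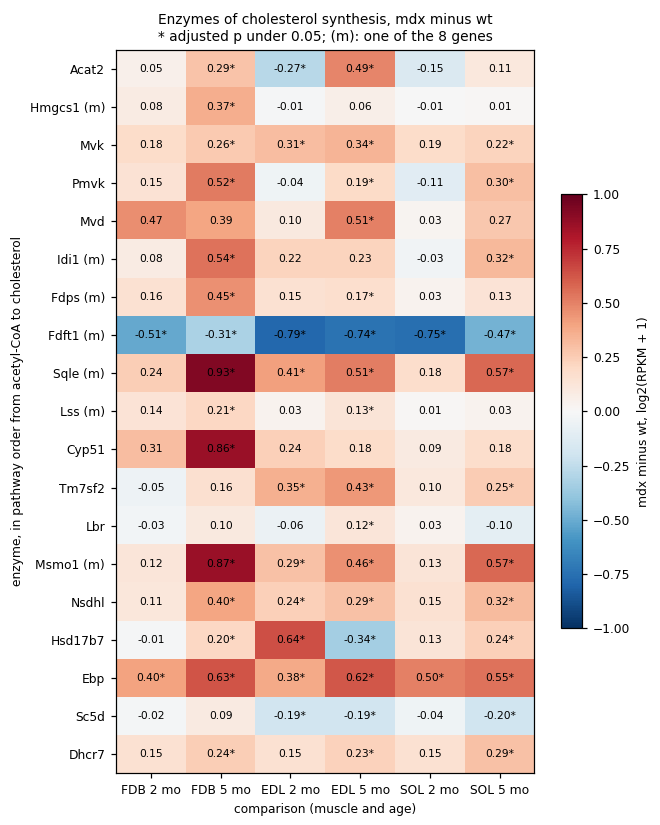
Difference between mdx and wt in log2(RPKM + 1) for enzymes of cholesterol synthesis in pathway order (rows) in 6 comparisons (columns), with the value in each cell, an asterisk for an adjusted p under 0.05 and (m) for the genes described in detail. Fdft1 is the one row that is negative and past the threshold throughout, between rows that are mostly positive at 5 months.

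Among the regulators, Srebf2 rose in all 6 comparisons, by 0.39, 0.58 and 0.31 at 2 months and 0.87, 0.83 and 0.83 at 5 months for FDB, EDL and SOL. In FDB at 5 months it averaged 10.5 ± 2.03 RPKM in mdx (SD, n = 7) and 5.26 ± 0.513 RPKM in wt (SD, n = 4), and it rose by 0.61 with block 1 and by 1.06 with block 3 alone. With age it fell in wt FDB, EDL and SOL, by 0.48, 0.43 and 0.39 on the log2 scale, and passed in no mdx muscle. The genotype by age test passed in SOL, at 0.51 (limma adjusted p = 0.018), where age and block cannot be told apart in mdx. Scap rose in all 6, by 0.23 to 0.40, but not past the threshold in any of them under either other scaling. Mbtps1, a protease that releases SREBP, rose in 5 comparisons, and Mbtps2, the other protease, in 4. Srebf1, which codes for SREBP1, rose in FDB at both ages and in EDL and SOL at 5 months, by 0.41 to 0.69. Insig2, the second INSIG gene, passed in none of the 6, with differences of -0.09 to 0.08. Rnf139, a ubiquitin ligase, passed in none. In all, of 9 regulators 5 rose in FDB, 5 in EDL and 5 in SOL at 5 months and 1 fell, in EDL. Of all genes tested 53.1% rose in FDB, 60.2% in EDL and 52.9% in SOL, so these counts are near the background. Genes that rose in all 6 comparisons, as Srebf2 and Scap did, were 17.3% of all genes tested.

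Among genes of sterol uptake, Stard4, the sterol carrier, rose by 0.56 in FDB, 0.29 in EDL and 0.19 in SOL at 5 months and by 0.25 in SOL at 2 months, with signs that turned in EDL and SOL at 5 months under quantile normalization. Of 7 uptake genes tested, 5 rose and 1 fell in FDB, 5 rose and 2 fell in EDL and 5 rose in SOL at 5 months, where 53.1%, 60.2% and 52.9% of all genes tested rose, so these counts are near the background. Vldlr, the VLDL receptor, fell in FDB at both ages and in EDL at 5 months, and Npc1 fell in 1. Tmem97, Scarb1 and Npc2 rose in 5, 5 and 6 comparisons. Of 9 genes of the sterol-sensing receptor LXR and of cholesterol efflux and storage, 8 rose and 1 fell in FDB, 7 rose and 1 fell in EDL and 6 rose and 1 fell in SOL at 5 months, to be read against the same shares. Apoe, an apolipoprotein that macrophages make, rose in all 6, by 1.5 to 3.31. Abca1, the cholesterol exporter, Soat1, which makes cholesteryl esters, and Lipa, the lysosomal lipase, also rose in all 6, by 0.53 to 1.2. So did 17.3% of all genes tested. Abcg1, Nr1h2, Nr1h3 and Mylip rose in 5, 3, 3 and 3, and Nr1h3 fell in 1, while Cyp27a1 fell in 3 and rose in 1. The macrophage marker sums given above rose with them in mdx, and the part of macrophages in these values was not tested.

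Fatty acid synthesis, the other SREBP program, was mixed. Of 14 genes, 9 rose and 2 fell in FDB, 11 rose and 3 fell in EDL and 9 rose and 3 fell in SOL at 5 months. Of all genes tested 53.1% rose in FDB, 60.2% in EDL and 52.9% in SOL, and 9.46%, 8.52% and 11.3% fell. Over all 6 comparisons 17.3% of all genes tested rose throughout and 1.04% fell throughout. Acly, which makes cytosolic acetyl-CoA, rose in all 6, by 0.36 to 0.74, and Scd2, a desaturase, rose in 4, by 1.45 in FDB at 5 months. Elovl5 and Elovl6 rose in 5 comparisons each, Thrsp in 4, Fasn, Scd1, Fads1, Fads2 and Pnpla3 in 3 each and Acaca in 2. Me1, the cytosolic malic enzyme, fell in all 6, by 0.39 to 0.74, Acacb, the mitochondrial acetyl-CoA carboxylase, fell in 5, by 0.44 to 0.71, and Acss2 fell in 3. Of 9 genes on the branches that lead from farnesyl diphosphate to other products, 3 rose in FDB and 3 in SOL at 5 months. In EDL at 5 months 4 rose and 1 fell. These counts of genes that rose lie below the shares of all genes given above. Dhdds, for dolichol, rose in all 6, by 0.26 to 0.55, Nus1 and Fntb rose in 4 each and Fnta and Pggt1b in 2 each, while Coq2, for ubiquinone, fell in 4, by 0.15 to 0.25.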

How the data were processed

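Poly(A) RNA of 55 libraries was sequenced. Per the submitters' processing notes and the file header, reads were handled with CASAVA 1.8.2 and TopHat2 2.1.0 against mm10, and the authors computed the deposited RPKM values in Partek 6.6. Neither strand use nor gene models are stated. Table columns were tied to the 12 groups by their names. Depth, in mega-reads (M), was recovered from the steps of low values and is approximate, with 73.3% to 85.3% of low values within 0.1 of a whole read, so no count test was run.

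Here log2(RPKM + 1) was fitted with limma 3.58.1 (R 4.3.3, trend) on 12 group means, over 12541 genes whose mean reached 0.5 RPKM. P-values were adjusted by Benjamini-Hochberg over those genes per comparison, with a threshold of 0.05. The fit was tested on simulated data. Tables and figures used Python 3.11.15, pandas 2.3.3, numpy 2.4.6 and matplotlib 3.10.9. No pair of libraries held identical values. Alternatives were 2 scalings, a pseudocount of 0.1, no filter, only the groups compared, single blocks, and leaving out each library. All 8 genes are named; genes of other lists are named where they passed in at least 2 of the 6 mdx comparisons, along with Srebf1, Srebf2, Scap, Insig2 and, chosen with their values known, those that passed in 1. Some genes counted in the lists are not reported here by name. The 8 genes and all lists were chosen with earlier results of these data known.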

Additional observations from a re-analysis of the deposited data

Results flagged for a closer look

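Of 88 groups of libraries tested for an extreme value, 6 held one, and chance alone gives about 1 in 20. Msmo1 had 1.34 RPKM in ns46 of wt EDL at 5 months, above the other 3 libraries, and Insig1 had 4.54 RPKM in ns33 of mdx EDL at 2 months, below the other 3. Library ns16 of wt FDB at 5 months was highest for both Lss, at 1.19 RPKM, and Fdft1, at 10.3 RPKM. Lss had 0.627 RPKM in ns17 of mdx SOL at 2 months, and Fdps had 13.4 RPKM in ns09 of wt FDB at 2 months, both the highest of their group.

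The mdx effect differed between ages in FDB for Msmo1, by 0.74, and Insig1, by 0.65. At 5 months it differed between EDL and FDB for Msmo1, by -0.41, Fdft1, by -0.43, and Fdps, by -0.28. It differed between SOL and FDB for Insig1, by -0.48, Hmgcs1, by -0.36, and Fdps, by -0.32. Each passed a limma test of the difference itself. The mdx libraries of SOL and FDB at 5 months lie partly in different blocks.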

How the results depend on the processing

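No paired analysis was possible because the columns carry library IDs and no replicate numbers. Among 611 values under other settings, 476 kept direction and side of the threshold, 84 no longer passed, 7 newly passed and 44 changed sign; of 953 values with 1 library left out the numbers were 856, 74, 5 and 18. Depth limits the precision of genes at low RPKM, such as Lss and Sqle.

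Counts of the 8 genes that passed moved by over 1.5 times as follows. Between mdx and wt, EDL at 2 months gave 5 with the compared groups alone, EDL at 5 months 2 under quantile normalization, and SOL at 2 months 2 under median of ratios, quantile normalization and the compared groups alone. With age, mdx FDB gave 1 with block 1; mdx EDL 2 under quantile normalization and 0 with the compared groups alone or block 1; wt EDL 1 under both scalings and without the filter, 4 with the pseudocount of 0.1 and 5 with the compared groups alone. Mdx SOL gave 2 with the compared groups alone and with block 3, and wt SOL 4 with the pseudocount of 0.1 and 1 without the filter, while under both scalings it gave 2 higher and 0 lower in place of 1 and 1. Genotype by age gave 1 in FDB with the compared groups alone, 0 with block 1 and 6 with block 3, and in SOL 2 with the pseudocount of 0.1 and 3 with block 2. Genotype by muscle at 5 months gave 7 with block 3. The cause was not tested. Shares of all genes are not given beside these counts, which therefore do not set the 8 genes apart from all genes.

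With 1 library left out, counts ran from 1 to 4 in FDB at 2 months, 8 to 8 in FDB at 5 months, 1 to 3 in EDL at 2 months, 4 to 6 in EDL at 5 months, 1 to 1 in SOL at 2 months and 4 to 6 in SOL at 5 months. With age they ran from 0 to 0 in mdx FDB, 5 to 6 in wt FDB, 1 to 1 in mdx EDL, 0 to 2 in wt EDL, 3 to 4 in mdx SOL and 1 to 3 in wt SOL. Genotype by age ran from 0 to 4 in FDB, 0 to 0 in EDL and 0 to 1 in SOL, and genotype by muscle from 0 to 0 at 2 months and 2 to 6 at 5 months. Genotype by age in FDB gave 4 without ns06 and 1 without ns02, ns12, ns13, ns14, ns54, ns55 or ns57, and in SOL 1 without ns20, ns31, ns58, ns59 or ns60. Wt EDL with age gave 0 without ns47 and 1 without ns41, ns44, ns46 or ns48, and wt SOL 1 without ns25, ns26, ns27, ns28, ns29, ns30 or ns32.

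Median-of-ratios scaling changed the sign of the mdx to wt difference for Msmo1 (-0.037), Insig1 (-0.070), Hmgcs1 (-0.11), Idi1 (-0.089) and Fdps (-0.031) in FDB at 2 months. In EDL at 2 months it did so for Insig1 (-0.082), Lss (-0.052) and Fdps (-0.063). In EDL at 5 months it did so for Hmgcs1 (-0.30), Idi1 (-0.062), Lss (-0.012) and Fdps (-0.18). In SOL at 2 months it did so for Insig1 (-0.15), Lss (-0.059) and Fdps (-0.14). In SOL at 5 months it did so for Hmgcs1 (-0.24), Lss (-0.067) and Fdps (-0.11). Quantile normalization changed the sign of the mdx to wt difference for Msmo1 (-0.057), Insig1 (-0.030), Hmgcs1 (-0.056), Idi1 (-0.093) and Lss (-0.034) in FDB at 2 months. In FDB at 5 months it did so for Lss (-0.094). In EDL at 2 months it did so for Insig1 (-0.082), Idi1 (-0.019), Lss (-0.16) and Fdps (-0.010). In EDL at 5 months it did so for Hmgcs1 (-0.17), Idi1 (-0.11), Lss (-0.16), Fdps (-0.049) and Stard4 (-0.012). In SOL at 2 months it did so for Msmo1 (-0.076), Insig1 (-0.14), Sqle (-0.021), Lss (-0.15) and Fdps (-0.10). In SOL at 5 months it did so for Hmgcs1 (-0.19), Lss (-0.20), Fdps (-0.077) and Stard4 (-0.064). With block 2 alone Hmgcs1 (-0.078) and Lss (-0.052) changed sign in SOL at 5 months.

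Leaving out 1 library changed the sign of differences that had not passed, with these ranges: Hmgcs1 in EDL at 2 months (-0.034 to 0.050), Insig1 in SOL at 2 months (-0.036 to 0.062), Hmgcs1 in SOL at 2 months (-0.031 to 0.022), Idi1 in SOL at 2 months (-0.062 to 0.013), Lss in SOL at 2 months (-0.016 to 0.027), Fdps in SOL at 2 months (-0.012 to 0.063), Hmgcs1 in SOL at 5 months (-0.023 to 0.047) and Lss in SOL at 5 months (-0.00043 to 0.058).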
